A study of Mus musculus with 6 samples.

Results

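The Id and E protein genes are 8 genes of the helix-loop-helix network of lymphocytes, chosen by symbol: the Id genes Id1, Id2 and Id3, the E protein genes Tcf3, Tcf4 and Tcf12, and the repressors Bhlhe40 and Bhlhe41. All 8 were found among the 39179 gene identifiers of each file, and all 8 passed the filter on low counts, which kept 14928 genes. They were read in polyA RNA-seq libraries of mouse CD4+ cells cultured to become regulatory T cells (Tregs). The cells were naive CD4+ T cells from spleens of wild type C57BL/6 mice of 6 weeks, cultured for 3 days on coated anti-CD3 (2 per ml, in micrograms if the garbled unit in the labels is read so) with anti-CD28 (1 µg/ml), TGFβ1 (5 ng/ml) and IL-2 (40 ng/ml). The 3 DEL-1-Fc libraries came from cultures that also received DEL-1-Fc, a fusion of the integrin-binding protein DEL-1 to antibody Fc, and the 3 Fc libraries from cultures given the Fc control. The design asks which genes differ between Tregs made with DEL-1-Fc and with Fc. The labels do not say whether replicates were separate animals or cultures, so p-values reflect only how much these libraries vary, possibly for technical reasons, and no sort for Foxp3+ cells is named.

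E proteins are basic helix-loop-helix transcription factors that bind E-box motifs as dimers, and in T cells they drive genes of thymocyte development and hold mature cells back from effector fates. Id proteins carry the helix-loop-helix but lack the basic region that touches DNA, so an Id protein bound to an E protein keeps it off its sites. In mouse Tregs, Id2 and Id3 are known to maintain the population, and Id3 is known to aid Foxp3 induction by TGF-β. Bhlhe40 and Bhlhe41 (DEC1 and DEC2) bind the E-box CACGTG as repressors, and Bhlhe40 is also known to control cytokine genes in T cells.

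The libraries held 33364166 to 61967687 counts, and DEL-1-Fc replicate 1, the shallowest, stood apart from the other libraries of its group on the first and second principal components of log CPM (counts brought to a common library size with TMM factors), which carried 44.0% and 23.3% of the variance. The 6 T cell markers summed to 3269 to 3750 CPM under DEL-1-Fc and 3402 to 3569 CPM under Fc. Of the 5 Treg markers, Foxp3 rose, at 464.8 to 584.1 CPM under DEL-1-Fc and 315.6 to 414.1 CPM under Fc, and Ctla4 fell. The Foxp3 call (edgeR adjusted p = 0.0166) did not hold with DEL-1-Fc replicate 1 (0.0928), Fc replicate 1 (0.0873) or Fc replicate 3 (0.0753) left out. The 6 myeloid markers summed to at most 0.337 CPM under DEL-1-Fc and 0.255 CPM under Fc, the 3 NK markers to at most 0.0675 and 0.0911 CPM, and the 5 erythroid markers to at most 0.548 and 0.364 CPM. The 2 CD8 markers summed to 11.9 to 12.8 CPM under DEL-1-Fc and 10.1 to 10.4 CPM under Fc. Cd8a was called higher, while Cd8b1 averaged 8.20 CPM under DEL-1-Fc and 7.96 CPM under Fc and was not called. In bulk RNA, fewer cells of a type and less RNA per cell cannot be told apart.

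Of the 8 genes, 3 rose, 2 fell and 3 did not pass the test. All 3 Id genes were higher in DEL-1-Fc than in Fc, while Tcf4 and Bhlhe40 were lower and Tcf3, Tcf12 and Bhlhe41 were not called. Across all 14928 genes, 12.6% were called by edgeR's quasi-likelihood test at a Benjamini-Hochberg adjusted p under 0.05, 6.4% as higher and 6.22% as lower in DEL-1-Fc. The median log2 fold change was -0.04 over the 8 genes and 0.01 over all genes. The 2 groups did not overlap in 7 of the 8 genes, Tcf12 being the exception, beside 34.8% of all genes tested. The 7 include Tcf3 and Bhlhe41, which were not called. For Bhlhe41 the separation rests on 4 to 12 counts per library, with 10 counts in libraries of both groups.

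**Figure D1:**
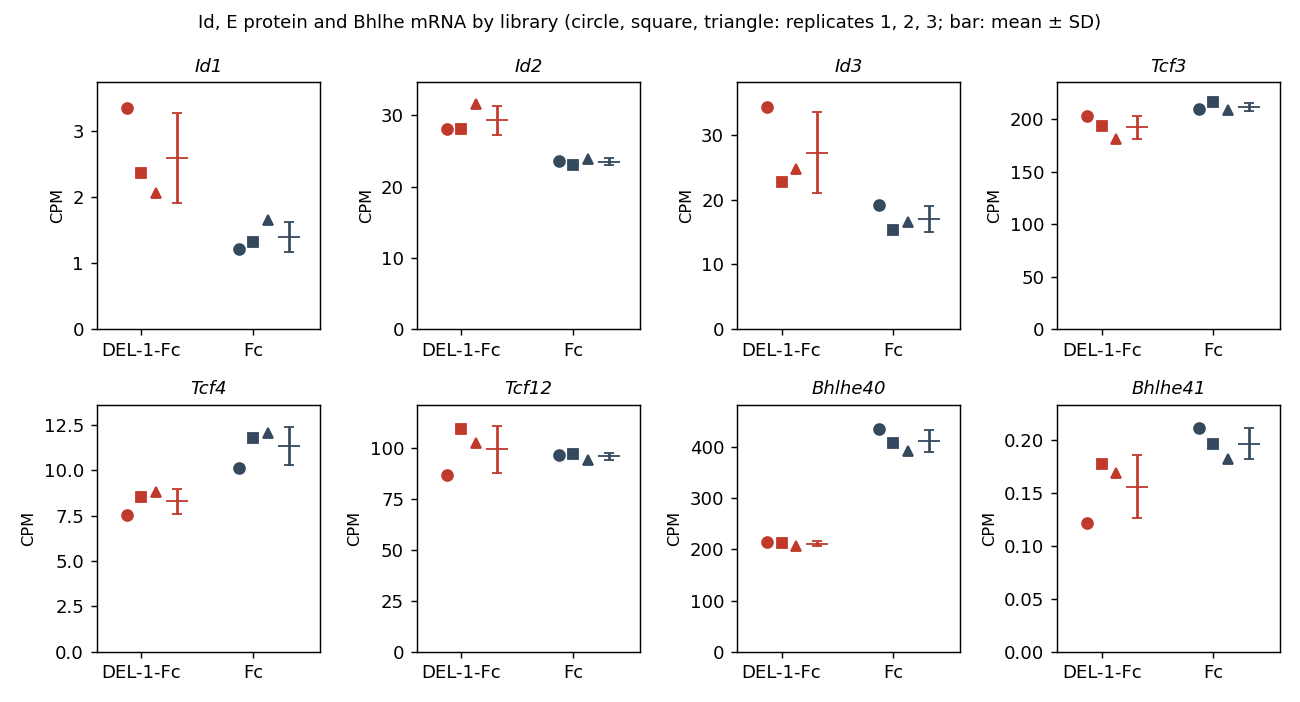
TMM-scaled CPM (y axis, from 0) of each of the 8 genes in DEL-1-Fc (left) and Fc (right) libraries, with circles, squares and triangles for replicates 1, 2 and 3 and the mean ± SD beside them. The 3 Id genes lie higher in every DEL-1-Fc library than in any Fc library, Tcf4 and Bhlhe40 lie lower, and Tcf12 overlaps.

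E-boxes, the motif that both E proteins and the Bhlhe repressors read, were searched in RefSeq promoters (GRCm38.p6, 250 bases before to 50 after the start), which were held for 5 of the 8 genes in 7 windows. CACGTG, the form read by Bhlhe factors, was in 1 of these 7 windows and in 7.15% of all 32851 promoters. CAGGTG or its reverse complement CACCTG was in 1 of 7 and in 20.2% of all promoters, and CAGCTG in 2 of 7 and in 16.3%. The loose form CANNTG, which covers all of these, was in 6 of 7 and in 72.3% of all promoters. The Id3 window was the one without it. That window begins inside an annotated exon, past the annotated start of Id3, so bases upstream of the annotated gene were not searched. A Tcf12 window also begins inside an annotated exon. The Egr motif GCGTGGGCG, on either strand, was in 0 of 7 windows and in 0.612% of all promoters. No match says only that these letters are not in the window.
The stretches that hold the 3 strict E-box forms are shown to place those motifs, each taken from before the first annotated exon base in its window. E-boxes are in capitals, and each stretch is written 5′ to 3′ on the gene's own strand (minus for all). The Id2 stretch lies inside the annotated span of Id2 (25093799 to 25097140). The Bhlhe41 and Tcf12 stretches lie upstream of the annotated spans of their genes.
Id2, chr12:25096254-25096342: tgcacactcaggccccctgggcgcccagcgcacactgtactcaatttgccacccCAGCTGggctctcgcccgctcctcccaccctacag
Bhlhe41, chr6:145865559-145865670: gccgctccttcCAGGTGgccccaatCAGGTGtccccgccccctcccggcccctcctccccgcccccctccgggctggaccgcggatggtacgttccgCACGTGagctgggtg
Tcf12, chr9:72112040-72112069: agatgctgccCAGCTGcgtccccgtcgcgg
The Id2 and Tcf12 stretches each hold the E-box CAGCTG once, 196 and 240 bases before the RefSeq start. Bhlhe41, the scarcest of the 8 genes, holds CAGGTG in 2 places and the Bhlhe form CACGTG in 1 place, 153 bases before its start. Among the genes shown, only Id2 was called between DEL-1-Fc and Fc.

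Id2 encodes the Id protein tied to effector differentiation of T cells. It measured 28.1, 28.1 and 31.6 CPM under DEL-1-Fc, against 23.6, 23.0 and 23.9 CPM under Fc. The DEL-1-Fc libraries were all above the Fc libraries. Id2 rose 1.25-fold (log2 fold change 0.32, SE 0.0726, edgeR adjusted p = 0.0222), the smallest of the 3 Id rises. The gene (ENSMUSG00000020644) spans 25093799 to 25097140 of chromosome 12 (minus strand) in GRCm38, with no other gene annotated over it, and 2.01% of its 31-base words also occur in the predicted gene Gm6175.

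Id3 encodes the Id protein tied to naive and memory states of T cells and induced by T cell receptor signals through Egr factors. It measured 34.3, 22.7 and 24.7 CPM under DEL-1-Fc, against 19.2, 15.3 and 16.5 CPM under Fc. DEL-1-Fc replicate 1 was the highest library, and the other DEL-1-Fc libraries were also above all 3 Fc libraries. Id3 rose 1.597-fold (log2 fold change 0.68, SE 0.158, edgeR adjusted p = 0.0272), and on leaving out DEL-1-Fc replicate 1 its log2 fold change was 0.48. Id3 (ENSMUSG00000007872) spans 136143497 to 136145755 of chromosome 4 (plus strand) with no overlapping gene.

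Id1, the Id gene best known as a target of BMP signals outside the T lineage, was scarce. It measured 3.35, 2.37 and 2.06 CPM (110, 134 and 122 counts) in DEL-1-Fc, against 1.22, 1.32 and 1.66 CPM (69, 81 and 91 counts) in Fc. As with Id3, DEL-1-Fc replicate 1 was highest, and the lowest DEL-1-Fc library was still above the highest Fc library. Id1 rose 1.84-fold (log2 fold change 0.88, SE 0.215, edgeR adjusted p = 0.0292), the largest fold change and the widest error of the 3. With DEL-1-Fc replicate 1 left out, its log2 fold change was 0.66. Id1 (ENSMUSG00000042745) spans 152736251 to 152737410 of chromosome 2 (plus strand).

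The 3 Id rises kept their direction in every alternative that could be fitted, but each call was lost in some of them. Among the fits with 1 library left out, the Id1 call was lost without Fc replicate 1 (edgeR adjusted p = 0.132) or Fc replicate 2 (0.112). The Id2 call was lost on leaving out any 1 of Fc replicates 1, 2 and 3 (0.0951, 0.107 and 0.0881) and on leaving out DEL-1-Fc replicate 3 (0.0734). The Id3 call was lost on leaving out Fc replicate 2 (0.105) or Fc replicate 3 (0.0981). Id4, the remaining Id gene, had 0 counts in each DEL-1-Fc library and at most 0.0182 CPM under Fc, and was not tested.

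Tcf3 encodes E12 and E47, splice forms that gene counts do not separate, and was the most abundant E protein gene. It measured 203.0, 193.5 and 181.1 CPM under DEL-1-Fc, against 210.3, 216.2 and 208.7 CPM under Fc. All DEL-1-Fc libraries were below all Fc libraries, but the difference was small and did not pass the test (log2 fold change -0.14, SE 0.0630, edgeR adjusted p = 0.2). It passed only on leaving out DEL-1-Fc replicate 1 (log2 fold change -0.18, adjusted p = 0.0290). Tcf3 (ENSMUSG00000020167) spans 80409514 to 80433647 of chromosome 10 (minus strand).

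Tcf12 encodes HEB, the usual partner of E2A proteins in thymocytes. It measured 86.8, 109.6 and 102.4 CPM under DEL-1-Fc, against 97.0, 97.1 and 94.1 CPM under Fc. DEL-1-Fc replicate 1 was the lowest library of all and the other DEL-1-Fc libraries were the highest, so the groups overlapped. The log2 fold change was 0.05 (SE 0.0850, edgeR adjusted p = 0.731), and it was -0.020 on leaving out DEL-1-Fc replicate 2. Tcf12 (ENSMUSG00000032228) spans 71842688 to 72111871 on the minus strand of chromosome 9, over several small genes that share none of its exon bases.

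Tcf4 encodes E2-2, the E protein best known in plasmacytoid dendritic cells and B cells, and was the scarcest E protein gene. It measured 7.53, 8.51 and 8.79 CPM under DEL-1-Fc, against 10.1, 11.8 and 12.1 CPM under Fc. The highest DEL-1-Fc library lay below the lowest Fc library. Tcf4 fell 1.37-fold (log2 fold change -0.45, SE 0.109, edgeR adjusted p = 0.0278), the one E protein gene called. The call was lost on leaving out Fc replicate 2 (adjusted p = 0.126), Fc replicate 3 (0.127) or DEL-1-Fc replicate 3 (0.0548). Thinning all libraries to the depth of the smallest also ended it (log2 fold change -0.41, edgeR adjusted p = 0.0654). Tcf4 (ENSMUSG00000053477) spans 69343356 to 69689079 on the plus strand of chromosome 18.

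Because Tcf4 also marks other lymphoid and dendritic cells, their markers were read beside it. The 7 B cell markers summed to 6.73 to 8.07 CPM under DEL-1-Fc and 6.51 to 8.21 CPM under Fc, none was at 0 in every library, and 1 of the 7 was called. That gene was Ebf1, a B lineage factor, at 0.427, 0.425 and 0.439 CPM under DEL-1-Fc against 1.27, 1.16 and 0.983 CPM under Fc (chosen once the values were known). Of the 5 plasmacytoid dendritic cell markers, Siglech was at 0 counts in every library, Cox6a2 and Klk1 were at or near 0 and not tested, Ccr9, called higher, was at most 0.472 CPM under DEL-1-Fc and 0.163 CPM under Fc, and Irf8, which T cells also express, was called lower (log2 fold change -0.35, edgeR adjusted p = 0.0149) and made up nearly all of the sum. That sum was 1117 to 1218 CPM under DEL-1-Fc and 1447 to 1587 CPM under Fc. The part of B cells in the Tcf4 difference was not tested.

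To compare genes with each other, CPM were divided by the length of each gene's merged exons in kilobases (CPM per kb). In DEL-1-Fc the order was Tcf3 (47.7 CPM per kb), Bhlhe40 (44.9), Id3 (15.2), Id2 (12.01), Tcf12 (6.41), Id1 (2.24), Tcf4 (0.302) and Bhlhe41 (0.0232). In Fc it was Bhlhe40 (87.6 CPM per kb), Tcf3 (52.4), Id2 (9.64), Id3 (9.49), Tcf12 (6.18), Id1 (1.21), Tcf4 (0.413) and Bhlhe41 (0.0292). Id2 and Id3 overlapped between libraries in both groups, so neither order of that pair exceeds the spread. Bhlhe40 and Tcf3 overlapped in DEL-1-Fc and were apart in Fc, and all other neighbours were apart in both groups. These orders and the shares below rest on merged exon lengths. Tcf12 has 15529 merged exon bases but 6299 in its longest transcript, and Tcf4 has 27382 and 8577. Tcf3 has 4039 and 2950, and Bhlhe40 has 4705 and 3113. With longest transcripts as lengths, places can change, including those of Tcf12 against Id2 and Id3 and of Bhlhe40 against Tcf3. Tcf3 made up 87.6 ± 1.68% of the E protein sum per kb in DEL-1-Fc and 88.8 ± 0.0856% in Fc (SD, n = 3 each). Id3 made up 51.2 ± 5.08% of the Id sum in DEL-1-Fc and 46.6 ± 2.94% in Fc, and its range of 48.2 to 57.1% in DEL-1-Fc overlapped that of 44.6 to 49.96% in Fc.

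The balance of the network was read as the summed Id1, Id2 and Id3 mRNA over the summed Tcf3, Tcf4 and Tcf12 mRNA, both in CPM per kb. The ratio was 0.598, 0.475 and 0.551 in DEL-1-Fc, against 0.366, 0.317 and 0.352 in Fc. Every DEL-1-Fc library had more Id mRNA for its E protein mRNA than any Fc library had, and DEL-1-Fc replicate 1 stood highest. The ratio averaged 0.541 ± 0.0621 in DEL-1-Fc and 0.345 ± 0.0251 in Fc (SD, n = 3 each), a 1.57-fold difference (0.65 on the log2 scale, where the pooled SD between replicates was 0.14). It is a description over the chosen genes and carries no test.

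Both sums lay apart between the groups, the Id sum higher and the E protein sum lower under DEL-1-Fc. The Id sum was 29.4 ± 3.74 CPM per kb in DEL-1-Fc and 20.3 ± 1.19 in Fc, and the E protein sum was 54.4 ± 2.32 in DEL-1-Fc and 59.0 ± 1.06 in Fc (SD, n = 3 each). With DEL-1-Fc replicate 1 left out, the log2 difference in the ratio was 0.57, the lowest of the 0.57 to 0.74 seen when any 1 library was left out. Computed from CPM with no length the ratio was 0.197 in DEL-1-Fc and 0.131 in Fc, a log2 difference of 0.58. With longest transcript lengths it was 0.468 in DEL-1-Fc and 0.300 in Fc, a log2 difference of 0.64. The level of the ratio thus depends on the lengths used, while the difference moved little. mRNA ratios do not give protein ratios.

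**Figure D2:**
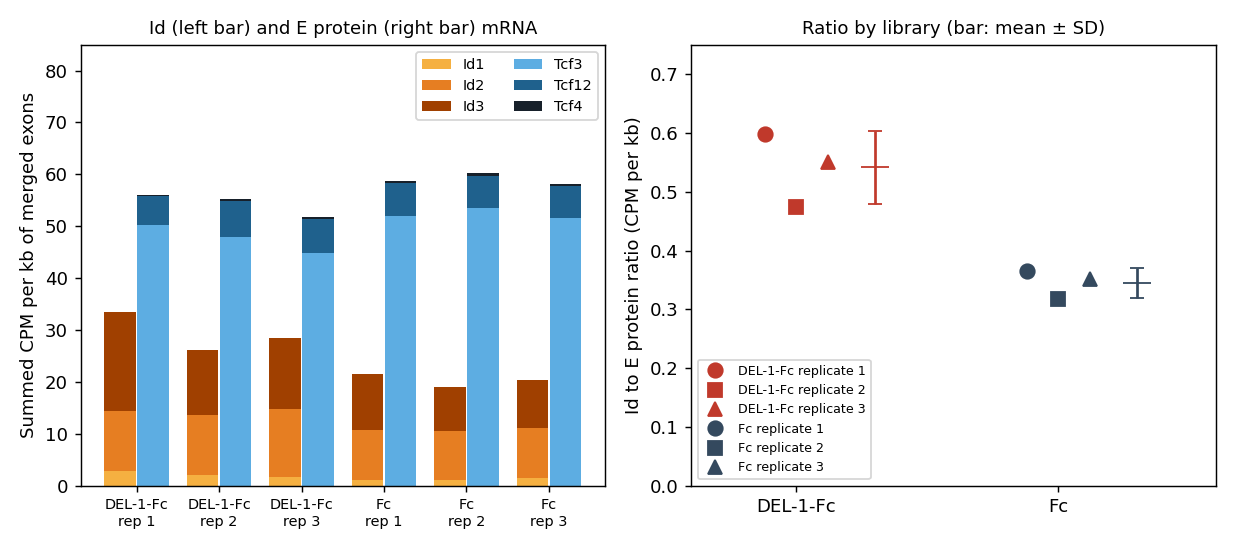
Left, summed CPM per kb of merged exons for the Id genes (left bar of each pair) and the E protein genes (right bar) in each library, DEL-1-Fc libraries first. Right, the Id to E protein ratio per library with mean ± SD, where the 3 DEL-1-Fc libraries lie between 0.475 and 0.598 and the 3 Fc libraries between 0.317 and 0.366.

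Bhlhe40, the repressor of Il10 and supporter of inflammatory cytokines in helper T cells, had the smallest p of the 8 genes. It measured 214.8, 212.3 and 206.1 CPM under DEL-1-Fc, against 435.8, 408.3 and 391.9 CPM under Fc. The groups lay far apart, and the SD within DEL-1-Fc was only 2.11% of its mean, beside 5.395% in Fc. Bhlhe40 fell 1.95-fold (log2 fold change -0.96, SE 0.0648, edgeR adjusted p = 7.26e-05) and was called in all 16 alternatives. The gene (ENSMUSG00000030103) spans 108660629 to 108666925 of chromosome 6 (plus strand), where the antisense gene 0610040F04Rik shares 118 of its exon bases. That gene held 2 to 5 counts in DEL-1-Fc libraries and 5 to 10 in Fc libraries, against at least 7049 for Bhlhe40, and the number of reads from the shared bases was not measured.

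Bhlhe41, its paralog on the same chromosome (ENSMUSG00000030256, minus strand, 145858243 to 145865558), was barely detected. It had 4, 10 and 10 counts in DEL-1-Fc, against 12, 12 and 10 in Fc. Only the 4 counts of DEL-1-Fc replicate 1 were close to the limit of 3 counts that a count of 0 would allow. That limit is 0.0484 to 0.0899 CPM across the libraries and covers counting error only. The log2 fold change of -0.29 (SE 0.359, edgeR adjusted p = 0.663) does not separate a change from none at this depth. The predicted gene Gm43909 overlaps 1280 of its exon bases on the other strand and was not analysed here.

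**Figure D3:**
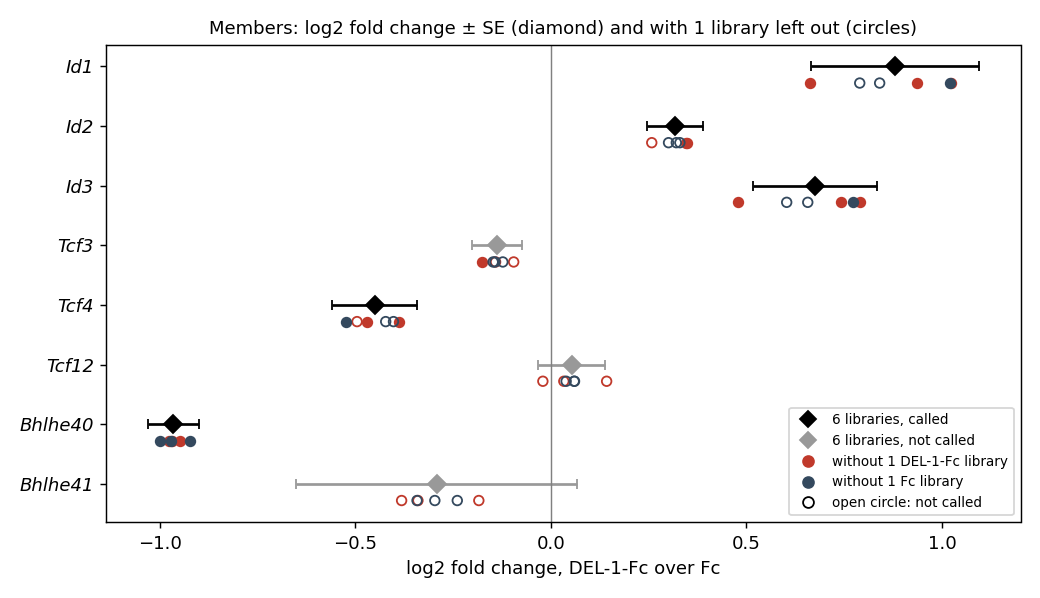
Log2 fold change, DEL-1-Fc over Fc, of the 8 genes from all 6 libraries (diamond ± SE, black where called) and with 1 library left out (circles below, red without a DEL-1-Fc library, dark without an Fc library, open where not called). Bhlhe40 stays near -0.96 and called throughout, the Id genes stay above 0 with several open circles, and Tcf12 crosses 0.

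Genes that carry signals to Id genes moved in both directions. Of 17 such genes, chosen with earlier results of these data known, 15 were tested, 3 rose, 3 fell and 9 did not pass, beside the 12.6% called among all genes. The median log2 fold change was 0.06 over the 15 and 0.01 over all genes. Egr2 and Egr3, T cell receptor-induced factors that activate Id3 in mouse thymocytes, were called higher. Any link between their rise and that of Id3 was not tested. Egr2 measured 91.6, 89.8 and 80.0 CPM under DEL-1-Fc, against 58.7, 59.9 and 57.3 CPM under Fc (log2 fold change 0.57, SE 0.0685, edgeR adjusted p = 0.000983). Egr3 measured 84.9, 102.7 and 69.9 CPM under DEL-1-Fc, against 50.7, 57.9 and 46.6 CPM under Fc (log2 fold change 0.73, SE 0.141, adjusted p = 0.0126). DEL-1-Fc libraries were above Fc libraries for both, while Egr1, the third factor of that group, averaged 177.2 CPM under DEL-1-Fc and 172.6 CPM under Fc and was not called. The Egr3 call was lost on leaving out DEL-1-Fc replicate 1 (adjusted p = 0.125), Fc replicate 1 (0.0614) or Fc replicate 3 (0.0511).

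Among genes of TGF-β, BMP and IL-2 signals, Smad3 rose while Bmpr1a, Stat5a and Stat5b fell. Smad3, which carries TGF-β signals, rose (log2 fold change 0.41, SE 0.0719), at 38.8 ± 2.07 CPM under DEL-1-Fc and 29.1 ± 1.53 CPM under Fc (SD, n = 3 each). Bmpr1a, a BMP receptor, fell (log2 fold change -0.54, SE 0.121) to 5.36 ± 0.407 CPM under DEL-1-Fc, against 7.82 ± 0.853 CPM under Fc. Smad1 and Smad5, which carry BMP signals to Id1 in many cell types, had log2 fold changes of 0.06 each and were not called. Stat5a and Stat5b, which act downstream of IL-2, fell by log2 values of 0.39 (SE 0.0629) and 0.33 (SE 0.0696). The Bmpr1a call was lost on leaving out Fc replicate 2 (edgeR adjusted p = 0.0949) or Fc replicate 3 (0.0983) and after thinning to the smallest library (-0.45, adjusted p = 0.0611), and the Stat5b call on leaving out Fc replicate 1, 2 or 3 (0.0744, 0.0790 and 0.0614). With Fc replicate 2 or Fc replicate 3 left out, the genes that fell numbered 1.

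Known targets of E proteins in the T lineage were also read. Of 28 such genes, 25 were tested, 7 rose, 5 fell and 13 did not pass, beside 6.4% of all genes called higher and 6.22% called lower. The median log2 fold change was 0.19 over the list and 0.01 over all genes. E proteins activate some of these genes and hold back others, so the list has no single expected direction, and several of its genes were already known to differ in these data. Spib, an Ets factor, averaged 3.53 CPM under DEL-1-Fc and 1.47 CPM under Fc and rose (log2 fold change 1.26, SE 0.144). Cdkn1a, the cell cycle inhibitor p21 and an E2A target, fell (log2 fold change -1.09, SE 0.0814), as did Notch1, an E protein target in thymocytes (-0.66, SE 0.0831), Gfi1, a repressor (-0.52, SE 0.0688), and Gata3 (-0.56, SE 0.0901). Klf2 (1.56), Sox4 (1.44), S1pr1 (1.21), Foxp3 (0.54) and Socs3 (0.39) rose too, and Ccr7 fell (-0.48). The thymocyte genes Rag1, Rag2 and Ptcra were at or near 0 and not tested. With Fc replicate 1 or Fc replicate 3 left out, the genes that rose numbered 4.

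Clock genes were read beside the Bhlhe repressors, which act on the E-boxes of some but not all of them. Of 16, all were tested, 3 rose, 0 fell and 13 did not pass, beside 6.4% of all genes called higher. At an unadjusted p under 0.05, edgeR put 5 higher and 2 lower. The share of all genes at that looser threshold was not counted, so these 2 counts have no background. At the adjusted threshold, DESeq2 and limma-voom also called 0 lower. The median log2 fold change was 0.17. Dbp, an output gene of the clock driven through E-boxes, measured 8.59, 8.56 and 6.65 CPM under DEL-1-Fc, against 2.77, 3.41 and 3.84 CPM under Fc. The groups were apart, and Dbp rose 2.37-fold (log2 fold change 1.25, SE 0.159, edgeR adjusted p = 0.00134). Tef, a relative of Dbp (log2 fold change 0.36, SE 0.0780), and Arntl, which encodes BMAL1 (0.40, SE 0.0769), also rose, while Cry1 (0.22), Cry2 (0.21) and Rora (-0.19) did not pass. Per1 (0.02), Per2 (0.25), Per3 (0.41), Nr1d1 (-0.34) and Ciart (-0.21) did not pass either. The number that rose was 7 on leaving out DEL-1-Fc replicate 1 and 1 on leaving out Fc replicate 1 or Fc replicate 3, when only Dbp of the 3 stayed called. The Arntl call was lost with Fc replicate 1 (0.0540) or Fc replicate 3 (0.0675) left out, and the Tef call with any single Fc library (0.0852, 0.0610 and 0.107 for replicates 1, 2 and 3) or DEL-1-Fc replicate 3 (0.0507) left out.

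Of 16 partners and regulators of the Id and E proteins, 12 were tested. Of these, 0 passed edgeR at an adjusted p of 0.05, as in DESeq2 and limma-voom. With 12.6% of all genes called, few calls would fall in a list of this size, so the count says little about these genes. In edgeR, 1 had an unadjusted p under 0.05, a threshold at which the share of all genes was not counted. Lyl1, a helix-loop-helix partner of E proteins, had the smallest p, at 1.79 ± 0.181 CPM under DEL-1-Fc and 2.42 ± 0.161 CPM under Fc (SD, n = 3 each). Its log2 fold change was -0.44 (SE 0.146), with an edgeR adjusted p of 0.0890. Usp1, which stabilises Id proteins in human osteosarcoma cells, had a log2 fold change of -0.27 (SE 0.132) and passed on leaving out DEL-1-Fc replicate 1 (-0.44, adjusted p = 0.00447). Skp2, Kat2b, Ep300 and Crebbp, which act on E protein stability or as coactivators, had log2 fold changes of 0.11, 0.13, -0.15 and -0.30.

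**Figure D4:**
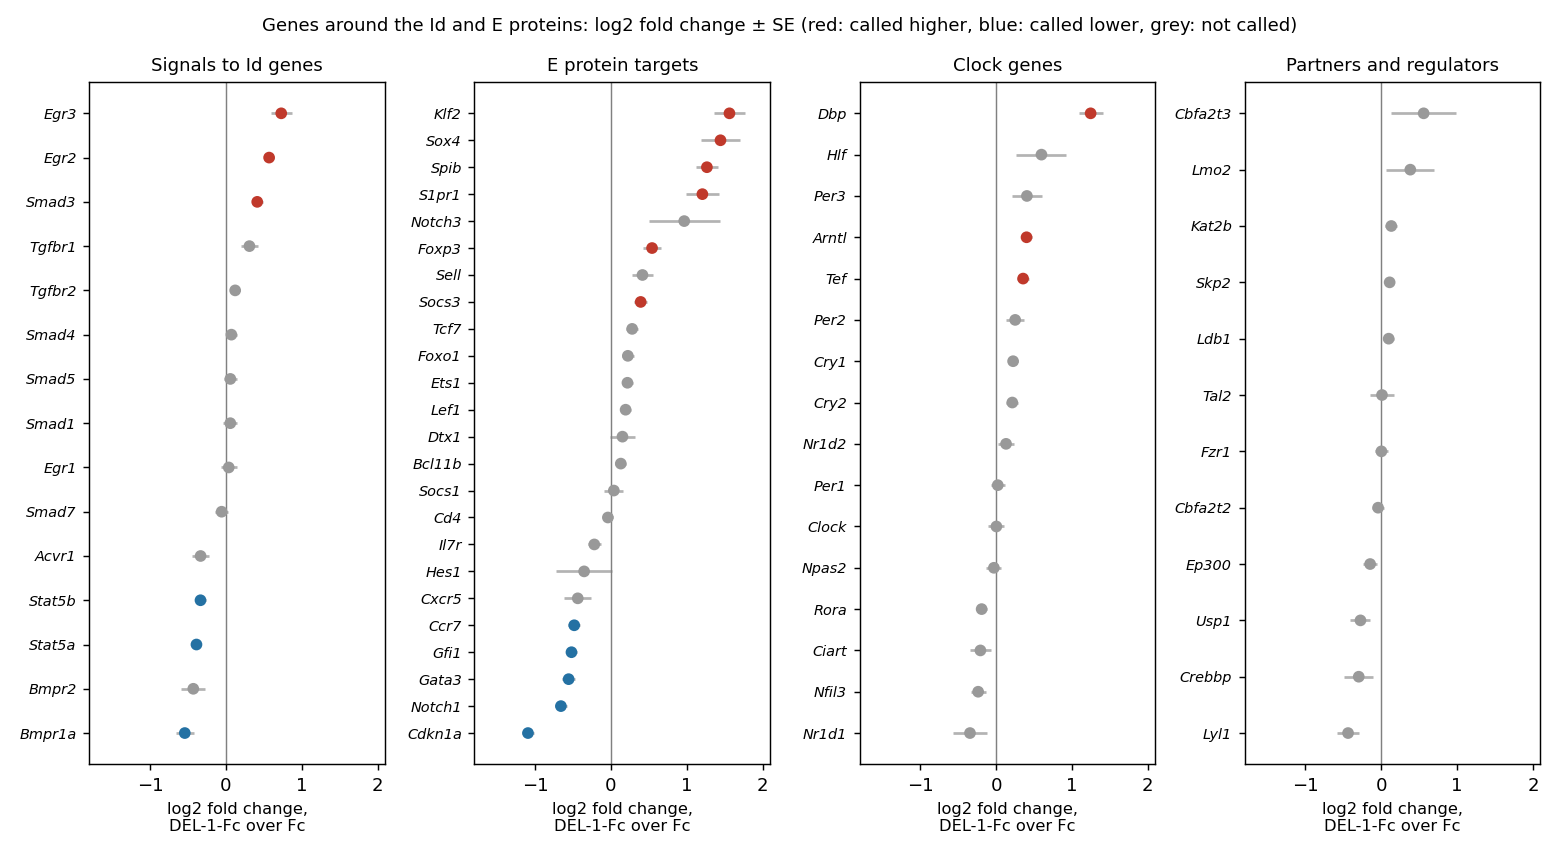
Log2 fold change, DEL-1-Fc over Fc, ± SE of the tested genes in 4 lists around the Id and E proteins, red where called higher, blue where called lower and grey where not called; 1 E protein target is not drawn. Egr2, Egr3 and Smad3 stand at the top of the signal list, Dbp at the top of the clock list, and no partner or regulator is coloured.

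The genes most like each called member were found by Pearson's r of log CPM over the 6 libraries, among 9128 named genes with a mean of at least 5 CPM, as a description. Such likeness reflects both the group difference and the libraries' order within groups, and a high r is easily reached over 6 libraries. For Bhlhe40 they were Il21r, Tbx21 and Csf2 (r = 0.999 for each), with log2 fold changes of -0.68, -1.18 and -1.94. For Tcf4 they were Bmpr1a, Ifi209 and Ak4 (r = 0.998, 0.997 and 0.994), with log2 fold changes of -0.54, -0.69 and -0.71. For Id3 they were Cd9, Cdk10 and Hsd17b10 (r = 0.999, 0.996 and 0.996), with log2 fold changes of 0.53, 0.18 and 0.16. For Id1 they were F2rl3, Nudt14 and Zkscan14 (r = 0.999, 0.995 and 0.994), with log2 fold changes of 0.50, 0.61 and 0.37. For Id2 they were Adss, Zfp748 and Sppl2a (r = 0.993, 0.993 and 0.991), with log2 fold changes of 0.18, 0.16 and 0.05 (SE 0.0559, 0.0733 and 0.0530). The Id genes shared none of these nearest genes, and Id1 and Id3 were both highest in DEL-1-Fc replicate 1 while Id2 was highest in DEL-1-Fc replicate 3.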

How the data were processed

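The authors deposited untransformed read counts for each gene in a separate file for every library. STAR, without a version, and HTSeq 0.6.0 with build GRCm38 (mm10) are listed in the submitters' processing notes. The annotation release, strand setting and handling of multi-mapping reads were not given in the sources used here. Of 39179 gene identifiers, 37693 matched GENCODE M21 (GRCm38), which gave symbols, coordinates and exon lengths. Groups came from the titles and treatment labels. The unaltered counts entered edgeR 4.0.16 (R 4.3.3): filterByExpr (minimum count 10, minimum total 15), TMM, quasi-likelihood test with robust dispersion, Benjamini-Hochberg adjustment over 14928 genes, calls at 0.05. The SE is the log2 fold change over the square root of F. Log CPM used a prior count of 2. Depth differed by up to 1.86-fold.

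Named genes were the 8 members, up to 6 genes per list with the smallest p, Foxp3, and 3 genes most like each called member; others, such as Egr1, Smad1, Smad5 and single cell type markers, were named after their values were seen. Members and lists were chosen with earlier results of these data known, and motifs after the values were seen. Replicates of a group differed well beyond sampling noise (lowest chi-square over its degrees of freedom 19.9). On simulated counts (14743 genes run, 200 genes set to change) edgeR recovered 43.1% of genes changed by a log2 of 0.5, and 8.92% of its calls were unchanged genes. The data had 1884 genes called, far more than were changed in the simulation, so these shares may not carry over to them. The values of 1 E protein target are not reported here, though its list's counts include it.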

Additional observations from a re-analysis of the deposited data

How the results depend on the processing

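The alternatives were DESeq2 1.42.0, limma-voom (limma 3.58.1), scaling by RLE, by upper quartiles or by library size only, no filter on low counts, a filter of 5 CPM in 3 libraries, dispersion without the robust option, a block for the replicate number, thinning to the smallest library, and each library left out in turn. No scaling moved the median of all genes by more than 0.03 on the log2 scale. Under the settings that kept all libraries, 2 values of the members changed side: Id1 with the replicate block (log2 fold change 0.86, adjusted p = 0.0771) and Tcf4 after thinning (-0.41, adjusted p = 0.0654). The replicate block changed no other call of a member. The deviations of same-numbered libraries correlated at 0.0163, 0.0885 and 0.0425, none above 0.1, so the numbers were not read as pairs, and 1510 genes were called under the block. Id1 had no value under the filter of 5 CPM, nor Bhlhe41 under that filter or after thinning.

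With 1 library left out, the log2 fold change ranged from 0.66 to 1.02 for Id1, 0.26 to 0.35 for Id2, 0.48 to 0.79 for Id3, -0.18 to -0.095 for Tcf3, -0.52 to -0.39 for Tcf4, -0.999 to -0.92 for Bhlhe40 and -0.38 to -0.18 for Bhlhe41. Tcf12 ranged from -0.020 to 0.14 and was -0.020 without DEL-1-Fc replicate 2, the one change of sign among the members. The log2 difference in the Id to E protein ratio ranged from 0.57 to 0.74. The number of genes called ranged from 901 (without Fc replicate 1) to 3003 (without DEL-1-Fc replicate 1), with 428 to 1485 higher and 466 to 1518 lower. Genes of the lists that rose numbered 4 to 9 (E protein targets), 2 to 3 (signals to Id genes), 1 to 7 (clock genes) and 0 (partners), and those that fell 5, 1 to 4, 0 to 1 and 0 to 1. The cause of these changes was not tested. Bhlhe41 had 4 to 12 counts per library, and only DEL-1-Fc replicate 1, at 4, was close to the limit of 3.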
